A study of Rattus norvegicus with 372 samples.

Results

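The genes described here were 10 genes of glycolysis and of the response to low oxygen: the glucose transporter gene Slc2a1, the glycolytic genes Hk2, Pfkp, Aldoa, Pgk1, Eno1 and Ldha, the secreted-factor genes Vegfa and Adm, and the mitochondrial gene Bnip3. They were chosen by name from the genes whose probe names carry these symbols. All 10 were found among the 20946 gene symbols of the whole transcriptome (WT) TempO-Seq assay, and 6 of them (Slc2a1, Pfkp, Aldoa, Vegfa, Adm and Bnip3) among the 2604 gene symbols of the smaller S1500+ (ST) assay. The counts of probes of 1 gene were added. TempO-Seq reads out pairs of short probes that are ligated on their target RNA in a cell lysate and then sequenced, so a gene is seen only at its probe site.

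Primary hepatocytes, the main parenchymal cells of the liver, were taken from male Wistar rats and kept between layers of collagen in a medium with insulin, dexamethasone and epidermal growth factor. They were exposed for 24 h to 14 chemicals, each at a high and a low concentration, in 0.5% DMSO. The chemicals were acetaminophen (10000 and 400 µM), caffeine (10000 and 400 µM), chloramphenicol (450 and 18 µM), diclofenac (400 and 16 µM), doxorubicin (2 and 0.08 µM), indomethacin (300 and 12 µM), isoniazid (10000 and 400 µM), ketoconazole (15 and 0.6 µM), naproxen (2000 and 80 µM), ranitidine (4000 and 160 µM), simvastatin (60 and 2.4 µM), sulfasalazine (100 and 4 µM), valproic acid (10000 and 400 µM) and WY14643 (200 and 8 µM). The controls were vehicle (0.5% DMSO) and culture medium alone. There were 2 batches, each with the hepatocytes of 1 rat, and 3 wells for each treatment in each batch. Per the study, libraries were prepared and sequenced separately for each batch. Vehicle and culture medium had 3 wells in batch 1 and 6 in batch 2, and each well was run by both assays. Wells of 1 batch share an animal, so they are technical replicates and the 2 rats are the only biological ones.

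Glycolysis splits glucose into pyruvate and yields ATP without oxygen. Slc2a1 encodes GLUT1, a glucose transporter of most cells, whereas resting hepatocytes mainly use GLUT2. Hexokinase 2 (Hk2), platelet-type phosphofructokinase (Pfkp), aldolase A (Aldoa), phosphoglycerate kinase 1 (Pgk1), alpha-enolase (Eno1) and lactate dehydrogenase A (Ldha) act at successive or later steps, and adult liver is known for other forms of several of them. When oxygen is low, the hydroxylases that mark the HIF alpha subunits for breakdown slow down, and HIF binds short DNA motifs and turns on these genes together with Vegfa (an angiogenic growth factor), Adm (adrenomedullin, a vasodilator peptide) and Bnip3 (a protein of mitochondrial clearance).

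The core of the HIF binding motif was searched in the 250 bases before the annotated start of each gene, as a description of the promoters of the genes measured here. The letters searched were ACGTG and GCGTG on either strand, which read CACGT and CACGC on the strand shown, and a palindromic CACGTG holds an overlapping match on each strand. RefSeq promoter sequences (GRCr8) were found for 9 of the 10 genes, all but Pgk1. Ldha, Bnip3 and Slc2a1 each had 4 matches and are shown. Hk2, which was picked because it had the largest response of the 10 genes, had 0 and is shown for contrast. The relation of matches to responses was not tested. Matches are in capitals, and each sequence runs 5′ to 3′ on the strand of the gene up to the base before its start.
Ldha, chr1:106507842-106508091, plus strand: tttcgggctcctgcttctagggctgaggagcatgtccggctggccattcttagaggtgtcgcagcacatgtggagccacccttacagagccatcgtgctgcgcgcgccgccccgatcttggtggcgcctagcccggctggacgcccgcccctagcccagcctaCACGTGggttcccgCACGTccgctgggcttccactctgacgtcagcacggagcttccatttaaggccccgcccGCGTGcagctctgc
Bnip3, chr1:203154963-203155212, minus strand: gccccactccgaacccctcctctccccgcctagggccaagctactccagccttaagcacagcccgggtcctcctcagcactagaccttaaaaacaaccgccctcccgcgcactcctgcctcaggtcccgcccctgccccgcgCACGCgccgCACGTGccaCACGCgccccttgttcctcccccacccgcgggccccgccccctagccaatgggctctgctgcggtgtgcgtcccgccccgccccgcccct
Slc2a1, chr5:138002272-138002521, plus strand: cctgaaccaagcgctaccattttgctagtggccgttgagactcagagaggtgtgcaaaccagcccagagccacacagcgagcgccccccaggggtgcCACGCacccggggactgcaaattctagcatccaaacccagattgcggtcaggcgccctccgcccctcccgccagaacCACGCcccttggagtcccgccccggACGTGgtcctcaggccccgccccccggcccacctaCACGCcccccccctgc
Hk2, chr4:116841276-116841525, minus strand: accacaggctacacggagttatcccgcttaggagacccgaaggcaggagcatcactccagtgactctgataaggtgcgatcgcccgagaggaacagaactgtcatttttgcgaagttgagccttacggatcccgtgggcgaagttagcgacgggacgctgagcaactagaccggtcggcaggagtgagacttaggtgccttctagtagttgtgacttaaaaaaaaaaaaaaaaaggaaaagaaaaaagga
The palindromic CACGTG of Ldha began 87 bases before the start and that of Bnip3 99 bases before it. Pfkp had 1 match, Eno1 had 1 before each of its 2 annotated starts, Aldoa had 1 before 1 of 3 starts, and Vegfa and Adm had 0. Of 33469 rat promoters of the same length, 36.7% held at least 1 match and 6.21% held 3 or more. A match is a run of letters and not a measured binding site, and its absence from this window says nothing of sites elsewhere.

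The total count per well ranged from 2289425 to 8975207 in the WT assay and from 558190 to 2210264 in the ST assay. Levels are given as CPM, the counts of a gene per 1000000 counts of a well in the WT assay, and responses as log2 fold change (L2FC) against the vehicle wells of the same batch, after scaling by the TMM factors of edgeR. All 28 treatments share those vehicle wells, so their responses are not independent of each other. The hepatocyte markers measured (9 of 12, among them Alb, Ttr, Apoa1 and Tf) summed to between 37759 and 45068 CPM in the vehicle wells. The 10 Kupffer cell and macrophage markers summed to between 68.0 and 102 CPM, 8 of 9 stellate cell markers to between 241 and 410 CPM (of which Reln gave 206 to 300.0), 5 cholangiocyte markers to between 37.7 and 50.6 CPM, and 7 of 8 endothelial markers to between 2.4 and 5.3 CPM. Epcam gave 27.3 to 44.3 CPM of the cholangiocyte sum, and Cd14 gave 23.0 to 42.4 CPM of the Kupffer cell and macrophage sum. Krt7 was at 0 counts in all 9 vehicle wells and Col1a1 in 7 of them. In bulk wells, fewer cells of a type and less RNA per cell cannot be told apart.

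In vehicle wells the level of most of these genes differed between the hepatocytes of the 2 rats. Ldha, which turns pyruvate into lactate, was at 35.7 ± 6.89 CPM (SD, n = 3) in batch 1 and 92.6 ± 15.5 CPM (SD, n = 6) in batch 2. Adm was at 68.7 ± 5.33 and 189 ± 21.7 CPM, and Bnip3 at 320 ± 41.8 and 654 ± 65.2 CPM in the same wells. For Pfkp, Aldoa, Pgk1, Ldha, Vegfa, Adm and Bnip3, every vehicle well of batch 2 was above every vehicle well of batch 1. Eno1 was at 2182 ± 113 CPM in batch 1 and 1961 ± 98.4 CPM in batch 2, with overlapping wells, as were those of Slc2a1 (14.3 ± 3.22 and 12.5 ± 1.26 CPM) and Hk2 (1.51 ± 0.286 and 1.43 ± 0.490 CPM). Hk2 was counted 10.0 times on average in a vehicle well of batch 1 and 9.5 times in batch 2, so its control level carries a large counting error. Each batch is 1 animal, so a difference between rats has no test with animals as replicates.

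At the high concentrations these genes were raised more often than lowered. Of the 140 pairs of gene and high concentration, 71 were higher than vehicle at an adjusted p under 0.05 (edgeR quasi-likelihood test, Benjamini-Hochberg adjustment over 10191 genes), where 25.4% of all gene and treatment pairs were, and 15 were lower, where 25.5% of all pairs were. At the low concentrations 16 of 140 pairs were higher, beside 4.9% of all pairs, and 1 was lower, beside 4.5%. With the wells of each rat summed, 57 pairs were higher and 7 lower at the high concentrations, and 8 were higher at the low ones, where the 1 decrease did not pass. In batch 2 alone 6 pairs were lower at the low concentrations, and 8 against vehicle of the same plate. Aldoa was raised by most treatments, 11 of 28, followed by Slc2a1 and Vegfa (10 each), Hk2, Ldha and Bnip3 (9 each), Pfkp, Pgk1 and Eno1 (8 each) and Adm (5). Pfkp was lowered by 4 treatments, Eno1, Vegfa and Bnip3 by 3 each, and Aldoa, Ldha and Adm by 1 each. Slc2a1, Hk2 and Pgk1 were lowered by 0 of the 28 treatments in edgeR and also in DESeq2, and at an unadjusted p under 0.05 by 1, 1 and 2 treatments.

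**Figure D1:**
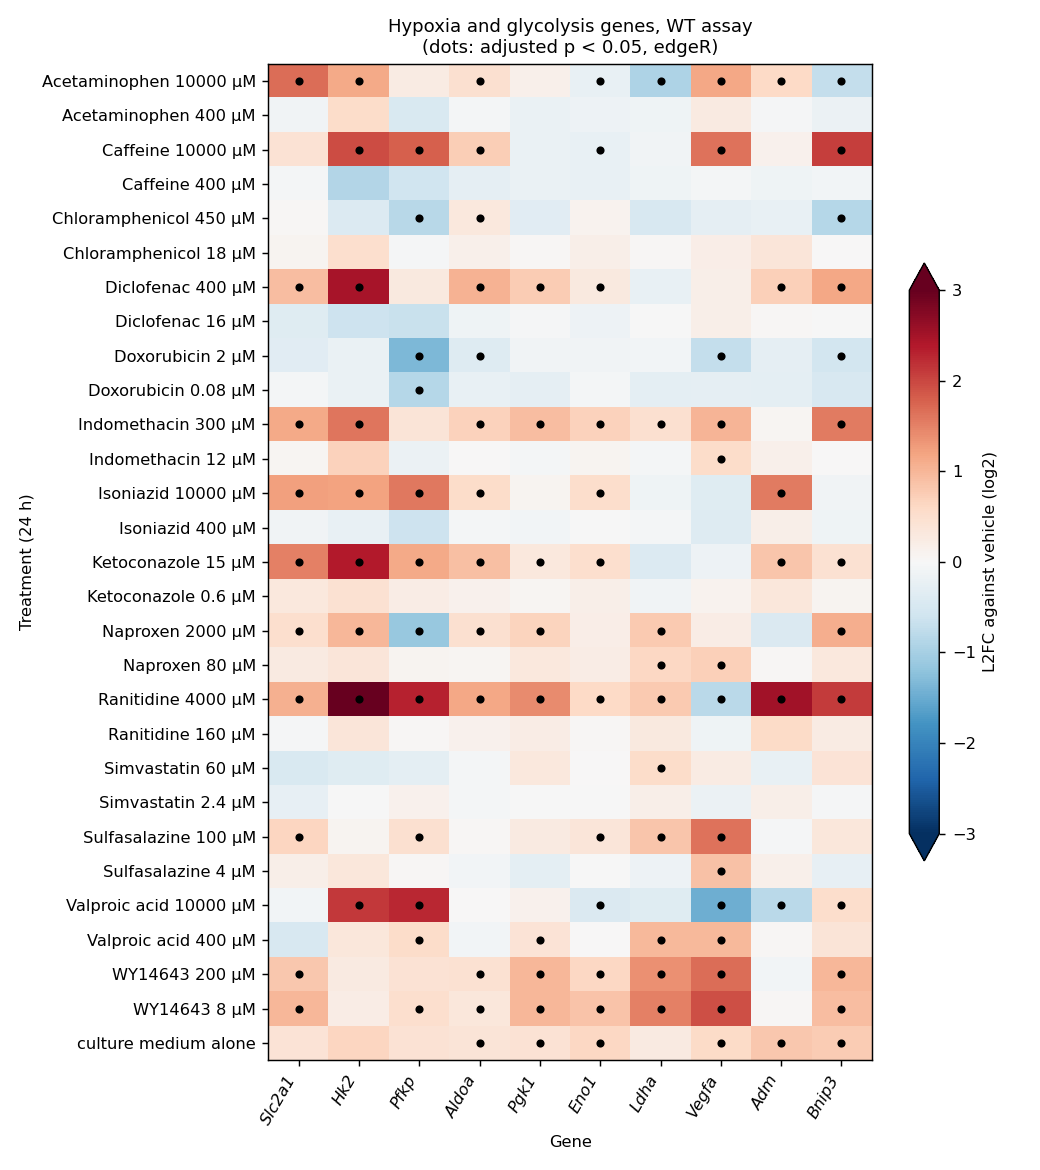
L2FC against vehicle in the WT assay for each of the 10 genes (columns) under each of 28 treatments and culture medium alone (rows), red for higher and blue for lower, with a dot where the adjusted p of edgeR was under 0.05. The colour scale ends at 3, below the Hk2 value of 4.04 under ranitidine 4000 µM, and most dots sit in rows of high concentrations and in the rows of WY14643.

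Ranitidine at 4000 µM, a histamine receptor blocker, changed all 10 genes. Of them, 9 rose, all but Vegfa, beside 32.3% of all genes tested, and Vegfa fell, beside 33.9%. Indomethacin at 300 µM raised 8 genes (all but Pfkp and Adm) beside 27.1% of all genes, and ketoconazole at 15 µM raised 8 (all but Ldha and Vegfa) beside 25.0%. WY14643, an agonist of the lipid-sensing receptor PPAR alpha, raised 7 genes at 200 µM (beside 26.0%) and 8 at 8 µM (beside 28%), and these were the same genes with Pfkp added. Diclofenac at 400 µM raised 7 genes (beside 36.0%), isoniazid at 10000 µM 6 (beside 17.4%) and sulfasalazine at 100 µM 5 (beside 21.3%). With the wells of each rat summed, 2 of the 5 increases under sulfasalazine passed (Ldha and Vegfa), 5 of the 8 under ketoconazole, 5 of the 7 under diclofenac and 6 of the 8 under WY14643 at 8 µM. For the 7 treatments of this paragraph other than ranitidine, 0 of the 70 pairs were lower in edgeR, 1 was lower in DESeq2 and 2 at an unadjusted p under 0.05.

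Most of the other high concentrations raised some of the genes and lowered others. Acetaminophen at 10000 µM raised Slc2a1, Hk2, Aldoa, Vegfa and Adm, beside 38.8% of all genes, and lowered Eno1, Ldha and Bnip3, beside 40.1%. Caffeine at 10000 µM raised Hk2, Pfkp, Aldoa, Vegfa and Bnip3 (beside 34.6%) and lowered Eno1 (beside 31.6%). Naproxen at 2000 µM raised Slc2a1, Hk2, Aldoa, Pgk1, Ldha and Bnip3 (beside 27.6%) and lowered Pfkp (beside 26.2%). Valproic acid at 10000 µM raised Hk2, Pfkp and Bnip3 (beside 33.5%) and lowered Eno1, Vegfa and Adm (beside 33.2%), which is close to the share of all genes in both directions. Chloramphenicol at 450 µM raised Aldoa (beside 16.1%) and lowered Pfkp and Bnip3 (beside 17.2%). Simvastatin at 60 µM raised Ldha alone of the 10 (beside 11.4%), and doxorubicin at 2 µM lowered Pfkp, Aldoa, Vegfa and Bnip3 (beside 10.3%) and raised 0 of the 10, also in DESeq2 and at an unadjusted p under 0.05. With the wells of each rat summed, the calls under chloramphenicol and simvastatin did not pass, and of the 4 under doxorubicin Pfkp alone did. Of the other calls in this group, Eno1 and Adm under acetaminophen, Adm and Bnip3 under valproic acid, Eno1 under caffeine and Slc2a1 under naproxen did not pass then. Aldoa and Eno1 under acetaminophen had opposite signs in the 2 rats.

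At low concentrations the calls came from 6 treatments. Apart from WY14643 at 8 µM, valproic acid at 400 µM raised Pfkp, Pgk1, Ldha and Vegfa (beside 15.1% of all genes), naproxen at 80 µM raised Ldha and Vegfa (beside 8.64%), and sulfasalazine at 4 µM (beside 9.35%) and indomethacin at 12 µM (beside 3.53%) raised Vegfa. Doxorubicin at 0.08 µM lowered Pfkp, beside 0.245% of all genes. With the wells of each rat summed, 8 of the 16 increases passed, 6 of them under WY14643 at 8 µM and the others Ldha and Vegfa under valproic acid at 400 µM. The calls under naproxen, sulfasalazine, indomethacin and doxorubicin did not pass then, and each of them passed in at most 1 of the 2 batches alone. Acetaminophen, caffeine and isoniazid at 400 µM, chloramphenicol at 18 µM, diclofenac at 16 µM, ketoconazole at 0.6 µM, ranitidine at 160 µM and simvastatin at 2.4 µM moved 0 of the 10 genes past the threshold in edgeR or in DESeq2, and 9 of the 80 pairs had an unadjusted p under 0.05.

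Slc2a1 was low in vehicle wells and rose most under acetaminophen and ketoconazole. Its vehicle wells were at 16.9, 10.7 and 15.4 CPM in batch 1 and between 10.5 and 13.8 CPM in batch 2. Under acetaminophen at 10000 µM the wells were at 19.5, 21.2 and 20.7 CPM in batch 1 and at 40.7, 36.0 and 46.9 CPM in batch 2. All 6 treated wells were above every vehicle well of their batch, by a smaller margin in batch 1. The L2FC was 1.67 (SE 0.21, adjusted p = 7.35e-13). Under ketoconazole at 15 µM, an antifungal agent, the wells were at 33.7, 43.2 and 33.3 CPM in batch 1 and 26.8, 42.6 and 31.5 CPM in batch 2, again above every vehicle well, with an L2FC of 1.5 (SE 0.21, adjusted p = 2.28e-10). Across the 28 treatments its L2FC ran from -0.48 to 1.67.

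Hk2, which phosphorylates glucose and is bound to mitochondria in many dividing cells, had the largest response of the 10 genes. Its vehicle wells held 1.81, 1.46 and 1.25 CPM in batch 1 and between 0.733 and 1.90 CPM in batch 2. Ranitidine at 4000 µM brought it to 22.2, 25.6 and 17.4 CPM in batch 1 and 21.9, 20.2 and 29.9 CPM in batch 2. The groups were far apart in both rats, and the L2FC was 4.04 (SE 0.23, adjusted p = 6.98e-37), a 16.5-fold rise. Diclofenac at 400 µM, an anti-inflammatory drug, gave 9.77, 8.39 and 9.61 CPM in batch 1 and 6.74, 8.32 and 11.2 CPM in batch 2, with no overlap with vehicle and an L2FC of 2.48 (SE 0.25, adjusted p = 4.23e-18). Ketoconazole at 15 µM (L2FC of 2.39) and valproic acid at 10000 µM (2.12) followed, and 0 of the 14 low concentrations moved it past the threshold in edgeR or DESeq2 (2 at an unadjusted p under 0.05).

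Pfkp, the platelet form of the enzyme at the committed step of glycolysis, moved in both directions. Vehicle wells held it at 29.3, 35.1 and 42.1 CPM in batch 1 and between 48.7 and 89.3 CPM in batch 2. With ranitidine at 4000 µM it reached 251, 256 and 242 CPM in batch 1 and 228, 257 and 275 CPM in batch 2. Valproic acid at 10000 µM gave 352, 286 and 324 CPM in batch 1 and 309, 278 and 292 CPM in batch 2. Both drugs thus brought the wells of the 2 rats to like levels from unlike vehicle levels. The L2FC was 2.32 (SE 0.19, adjusted p = 1.05e-22) for ranitidine and 2.27 (SE 0.19, adjusted p = 3.3e-22) for valproic acid. Naproxen at 2000 µM lowered it, with wells at 20.4, 17.1 and 17.8 CPM in batch 1 and 37.0, 35.3 and 21.1 CPM in batch 2, below every vehicle well (L2FC of -1.13, SE 0.21, adjusted p = 1.63e-06). Under doxorubicin at 2 µM, an anthracycline that damages DNA, the wells were at 19.6, 21.6 and 28.6 CPM in batch 1 and 11.1, 17.04 and 25.4 CPM in batch 2, for an L2FC of -1.35 (SE 0.22, adjusted p = 1.4e-07). The wells of batch 1 lay just below vehicle, and the response differed between batches.

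Aldoa, the aldolase of muscle and of most non-hepatic tissues, rose under 11 treatments by small steps with tight wells. In vehicle it was at 993, 898 and 929 CPM in batch 1 and between 1245 and 1467 CPM in batch 2. Under ranitidine at 4000 µM they reached 2086, 1996 and 2136 CPM in batch 1 and 2452, 2892 and 2825 CPM in batch 2, above every vehicle well (L2FC of 1.16, SE 0.10, adjusted p = 6.76e-23). Diclofenac at 400 µM gave 2227, 2221 and 2455 CPM and 2569, 2861 and 2920 CPM, with an L2FC of 1.03 (SE 0.10, adjusted p = 1e-19). Doxorubicin at 2 µM lowered it to 797, 847 and 816 CPM in batch 1 and 837, 888 and 941 CPM in batch 2 (L2FC of -0.39, SE 0.10, adjusted p = 0.00166). The reduction lay mainly in batch 2, and with the wells of each rat summed it did not pass the threshold (adjusted p = 0.289).

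Pgk1, an enzyme of the first ATP-yielding step of glycolysis, was raised by 8 treatments. The vehicle wells were at 162, 168 and 141 CPM in batch 1 and between 225 and 314 CPM in batch 2. Ranitidine at 4000 µM brought it to 419, 457 and 493 CPM in batch 1 and 632, 528 and 669 CPM in batch 2 (L2FC of 1.41, SE 0.14, adjusted p = 5.47e-18). WY14643 at 200 µM brought it to 259, 264 and 339 CPM in batch 1 and 512, 433 and 393 CPM in batch 2 (L2FC of 1.00, SE 0.14, adjusted p = 1.83e-10). Under both drugs every treated well was above every vehicle well of its batch.

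Eno1, which makes phosphoenolpyruvate, had the smallest spread of responses of the 10 genes, with L2FC from -0.43 to 0.87. In vehicle wells it stood at 2288, 2062 and 2195 CPM in batch 1 and between 1811 and 2094 CPM in batch 2. WY14643 at 8 µM gave 3460, 3544 and 3582 CPM in batch 1 and 2758, 2559 and 2788 CPM in batch 2 (L2FC of 0.87, SE 0.09, adjusted p = 1.47e-16), and indomethacin at 300 µM gave an L2FC of 0.70 (SE 0.09, adjusted p = 8.32e-12), with no overlap with vehicle in either batch. Valproic acid at 10000 µM gave 2106, 2009 and 2197 CPM in batch 1, within the vehicle wells there or just below them, and 1478, 1665 and 1707 CPM in batch 2, below them (L2FC of -0.43, SE 0.09, adjusted p = 1.56e-05). This call was lost when wells were scaled by total counts alone (L2FC of -0.16, adjusted p = 0.0541). The decrease under caffeine at 10000 µM was small (L2FC of -0.23, SE 0.09, adjusted p = 0.0213) and did not pass with the wells of each rat summed (adjusted p = 0.222).

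Ldha was raised most by WY14643 at both concentrations. Its vehicle wells were at 34.7, 43.0 and 29.3 CPM in batch 1 and, in batch 2, between 64.5 and 109 CPM with a median of 94.4. At 8 µM the wells were at 141, 99.7 and 97.7 CPM in batch 1 and 162, 164 and 164 CPM in batch 2 (L2FC of 1.52, SE 0.19, adjusted p = 1.2e-12). At 200 µM they were at 83.3, 78.2 and 130 CPM in batch 1 and 206, 176 and 133 CPM in batch 2 (L2FC of 1.38, SE 0.19, adjusted p = 5.39e-11). No well of either concentration overlapped with vehicle. Acetaminophen at 10000 µM gave the only decrease, to 7.97, 8.61 and 7.25 CPM in batch 1 and to 56.2, 67.1 and 20.9 CPM in batch 2 (L2FC of -0.94, SE 0.20, adjusted p = 1.34e-05). In batch 1 these wells were far below vehicle, and in batch 2 the highest of them was above the lowest vehicle well.

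Vegfa was raised by 5 of the 14 low concentrations, and by 2 of them (valproic acid at 400 µM and WY14643 at 8 µM) with the wells of each rat summed. In vehicle the wells were at 144, 134 and 189 CPM in batch 1 and between 207 and 323 CPM in batch 2. WY14643 at 8 µM gave 386, 430 and 548 CPM in batch 1 and 951, 1025 and 911 CPM in batch 2 (L2FC of 1.94, SE 0.18, adjusted p = 1.02e-19), and at 200 µM 443, 395 and 412 CPM and 683, 863 and 847 CPM (L2FC of 1.69, SE 0.18, adjusted p = 4.1e-16). At 8 µM the L2FC was 1.91 in batch 1 and 2.01 in batch 2. Valproic acid at 10000 µM lowered it to 89.8, 64.7 and 75.9 CPM in batch 1 and 93.8, 115 and 126 CPM in batch 2 (L2FC of -1.46, SE 0.19, adjusted p = 1.18e-11). Ranitidine at 4000 µM, under which the other 9 genes rose, gave 106, 109 and 84.7 CPM in batch 1 and 115, 146 and 125 CPM in batch 2, below every vehicle well (L2FC of -0.81, SE 0.19, adjusted p = 6.24e-05). In the ST assay that decrease was smaller and did not pass the threshold (L2FC of -0.37, adjusted p = 0.0939).

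Adm responded to fewer treatments than the other 9 genes, and strongly to ranitidine. Its vehicle wells were at 72.6, 62.6 and 70.9 CPM in batch 1 and between 168 and 219 CPM in batch 2. Under ranitidine at 4000 µM the wells were at 519, 515 and 526 CPM in batch 1 and 673, 719 and 769 CPM in batch 2 (L2FC of 2.53, SE 0.20, adjusted p = 9.95e-25), and isoniazid at 10000 µM, an antitubercular drug, gave 254, 244 and 288 CPM in batch 1 and 475, 444 and 500.2 CPM in batch 2 (L2FC of 1.56, SE 0.20, adjusted p = 1.19e-11). All of these wells were above every vehicle well of their batch. Under valproic acid at 10000 µM the wells of batch 1, at 64.0, 59.1 and 68.1 CPM, overlapped with vehicle, and those of batch 2, at 108, 94.8 and 92.1 CPM, were below it (L2FC of -0.80, SE 0.21, adjusted p = 0.000355). With the wells of each rat summed this decrease did not pass (adjusted p = 0.0958). Under WY14643 the L2FC of Adm was 0.04 at 8 µM and -0.09 at 200 µM, and neither passed the threshold.

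Bnip3, a receptor that marks mitochondria for breakdown, rose most under ranitidine and caffeine. Its vehicle wells were at 338, 350.4 and 273 CPM in batch 1 and between 554 and 718 CPM in batch 2. Under ranitidine at 4000 µM it reached 1450.1, 1729.9 and 1802 CPM in batch 1 and 2128, 1864 and 2488 CPM in batch 2 (L2FC of 2.09, SE 0.18, adjusted p = 4.73e-21). Caffeine at 10000 µM gave 1316, 1251 and 1796 CPM in batch 1 and 1696, 2067 and 3011 CPM in batch 2 (L2FC of 2.07, SE 0.18, adjusted p = 5.36e-21). These wells did not overlap with vehicle. Chloramphenicol at 450 µM, an inhibitor of mitochondrial protein synthesis, gave 211, 157 and 321 CPM in batch 1, partly within the vehicle wells, and 366, 364 and 334 CPM in batch 2, below them (L2FC of -0.86, SE 0.19, adjusted p = 0.000158). Acetaminophen at 10000 µM gave 76.1, 132 and 118 CPM in batch 1 and 381, 453 and 299 CPM in batch 2 (L2FC of -0.72, SE 0.19, adjusted p = 0.000353). The chloramphenicol decrease did not pass with wells summed per rat (adjusted p = 0.0641), and the acetaminophen decrease did not pass in the ST assay (L2FC of -0.30, adjusted p = 0.111). In edgeR the acetaminophen decrease also did not pass within batch 2 (L2FC of -0.39, adjusted p = 0.0829), or there against vehicle of its own plate (L2FC of -0.44, adjusted p = 0.0906).

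**Figure D2:**
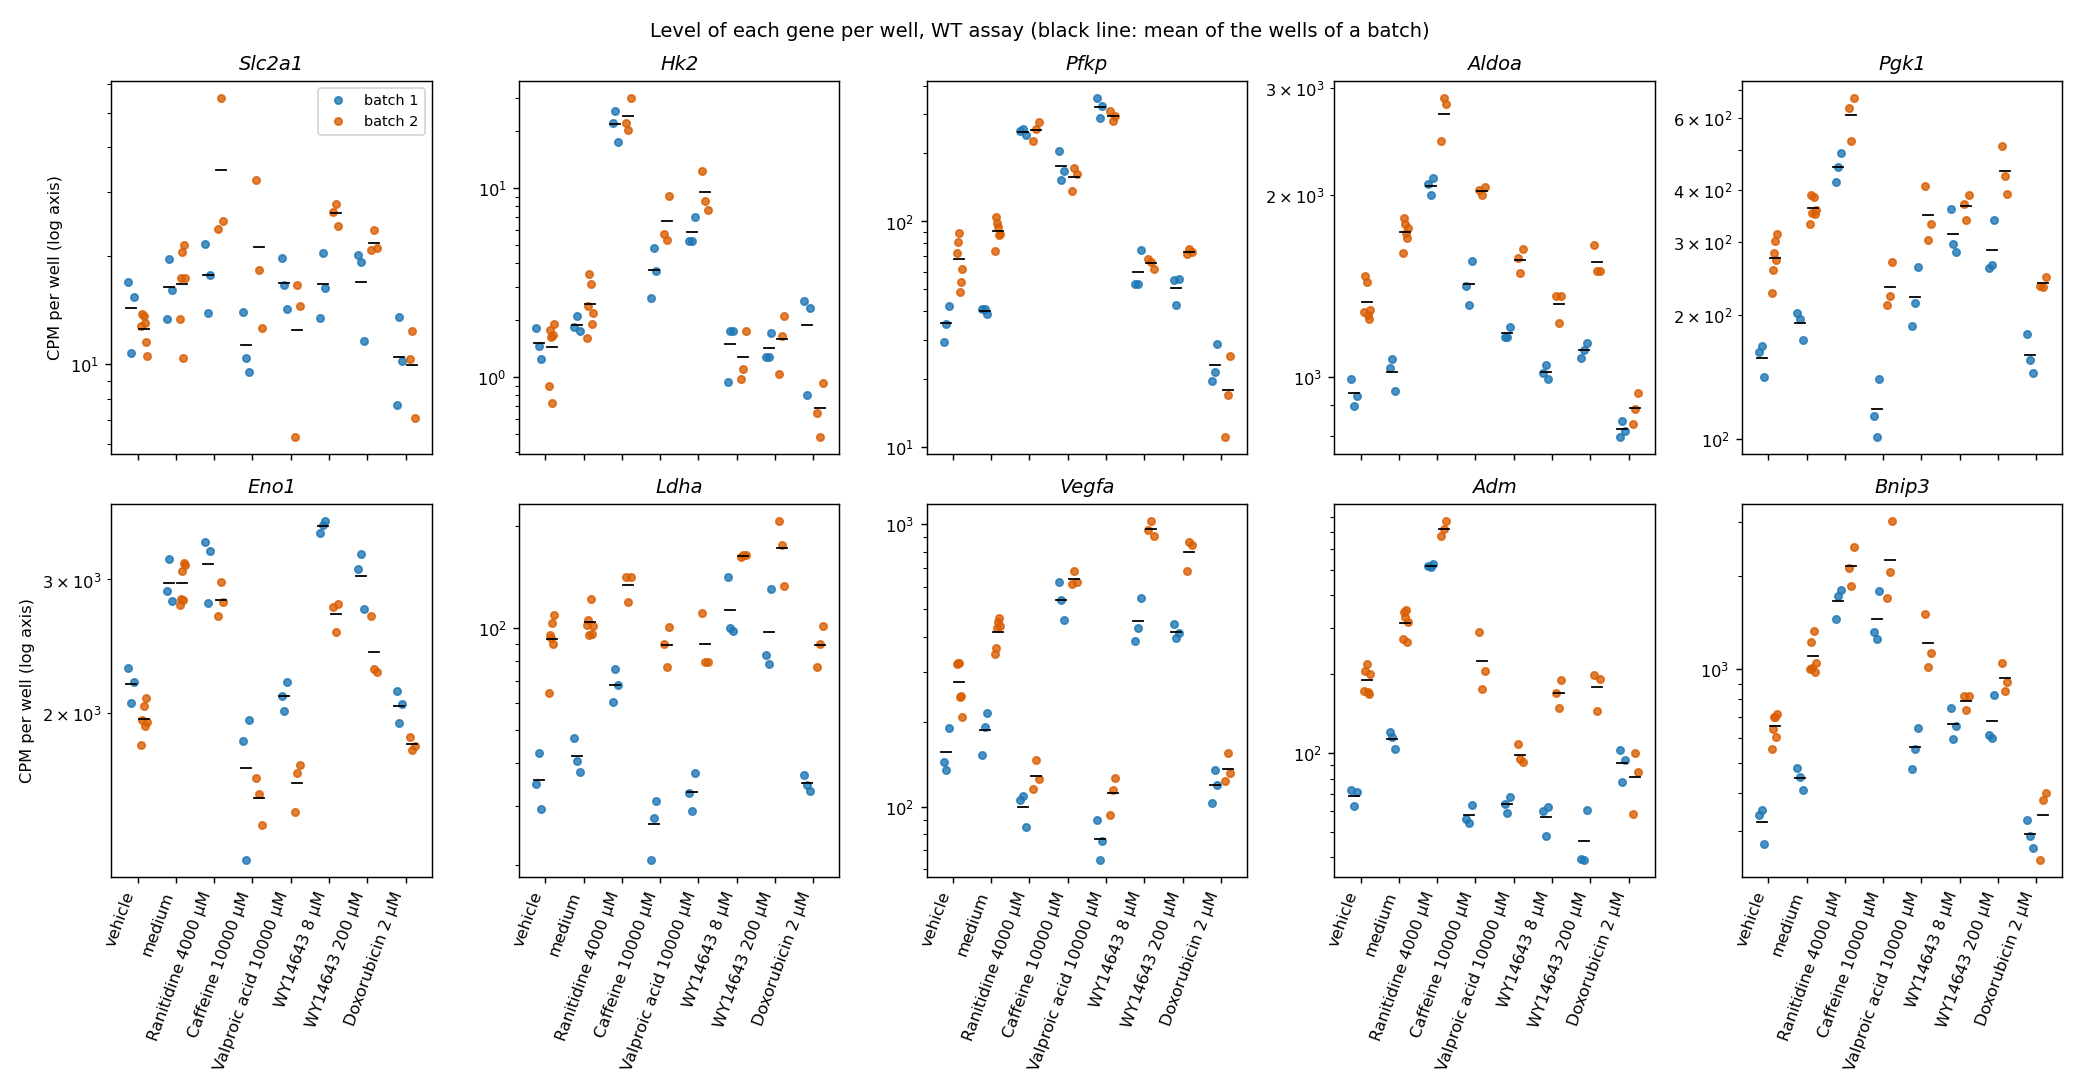
CPM per well in the WT assay on a log axis for each of the 10 genes in vehicle, culture medium alone and 6 treatments, with blue points for the wells of batch 1, orange points for those of batch 2 and a black line at the mean of each batch. Hk2, Pfkp, Adm and Bnip3 stand high under ranitidine 4000 µM in both batches while Vegfa stands below vehicle, and the Vegfa and Ldha wells of WY14643 stand above vehicle at 8 and at 200 µM.

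Markers of cell identity moved together with several of these responses. The hepatocyte marker sum, with a vehicle median of 41008 CPM in batch 1 and 43654 CPM in batch 2, had medians of 15096 and 13044 CPM under ranitidine at 4000 µM, 9082 and 7657 CPM under diclofenac at 400 µM, and 21621 and 16397 CPM under valproic acid at 10000 µM. They were 20554 and 23405 CPM under ketoconazole at 15 µM, 20437 and 21200 CPM under naproxen at 2000 µM, and 24673 and 23375 CPM under caffeine at 10000 µM. Under indomethacin at 300 µM, isoniazid, acetaminophen, chloramphenicol and doxorubicin at their high concentrations the medians lay between 24735 and 32219 CPM, also below vehicle. Under sulfasalazine at 100 µM they were 45492 and 44087 CPM and under simvastatin at 60 µM 41209 and 43202 CPM. Under WY14643 the hepatocyte medians were 38688 and 38778 CPM at 8 µM, with every well of batch 2 below vehicle there, and 33852 and 35400 CPM at 200 µM, below every vehicle well in both batches. The Kupffer cell and macrophage sum went from vehicle medians of 81.7 and 73.3 CPM to 139 and 136 CPM under ranitidine, and to 133 and 129 CPM under caffeine at 10000 µM, whereas it was at 40.5 and 31.5 CPM under acetaminophen at 10000 µM, at 38.8 and 34.9 CPM under valproic acid at 10000 µM and at 32.4 and 53.0 CPM under doxorubicin at 2 µM. The stellate cell sum, with vehicle medians of 404 and 274 CPM, was at 208 and 94.6 CPM under ranitidine. Under WY14643 it was at 208 and 122 CPM at 8 µM and at 171 and 97.0 CPM at 200 µM, below every vehicle well. It was lowest under caffeine at 10000 µM, at 94.96 and 49.97 CPM, and of the other high concentrations it lay below every vehicle well in both batches under all but isoniazid, where it was higher (449.8 and 396 CPM), and acetaminophen, where batch 2 overlapped with vehicle. The cholangiocyte sum, with vehicle medians of 38.6 and 45.3 CPM, was at 9.10 and 9.12 CPM under diclofenac at 400 µM, 15.5 and 10.1 CPM under naproxen at 2000 µM, 18.4 and 20.2 CPM under indomethacin at 300 µM and 57.8 and 75.0 CPM under valproic acid at 10000 µM. Under valproic acid at 400 µM the stellate cell sum was at 318 and 139 CPM, below every vehicle well. The Kupffer cell and macrophage sum was at 112 and 86.6 CPM there, above every vehicle well. The endothelial sum, from few counts, had vehicle medians of 4.84 and 3.40 CPM. Under doxorubicin at 2 µM it was at 0.330 and 0.482 CPM, and under valproic acid at 10000 µM at 1.24 and 1.08 CPM. Ranitidine at 4000 µM gave 1.80 and 0.687 CPM and isoniazid at 10000 µM 3.77 and 4.29 CPM. The part of these shifts in the responses of the 10 genes was not tested. TMM factors ran from 0.714 to 1.33 between wells, and a response can differ from the ratio of CPM values by that scaling.

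The 2 rats agreed in direction for nearly all calls and differed in size for some. Of the 103 called pairs of gene and treatment, 100 had the same sign in both batches and 69 passed the threshold in each batch alone with the same sign. In 76 of them all treated wells lay outside the vehicle wells in both batches. With the wells of each rat summed, so that the 2 rats were the only replicates, 72 pairs passed, all of them among the 103. The 3 called pairs with opposite signs were Pfkp under doxorubicin at 0.08 µM, and Aldoa and Eno1 under acetaminophen at 10000 µM.

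The response differed between batches, in a test of the difference itself with wells as replicates, for 20 of 280 pairs, beside 2.44% of all gene and treatment pairs. Of the 20 pairs, 14 were among the called pairs. Pfkp accounted for 7 of them and Adm for 4. For Pfkp, L2FC was smaller in batch 2 than in batch 1 in all 7, which were caffeine, diclofenac, ranitidine, simvastatin and valproic acid at the high and doxorubicin at both concentrations. Its vehicle level was higher in batch 2, and since that level is subtracted in each L2FC, it is not independent of the difference. Doxorubicin at 2 µM had an L2FC for Adm of 0.50 in batch 1 and of -1.30 in batch 2, a difference of -1.79 (SE 0.28, adjusted p = 5.15e-06), with wells at 103, 77.4 and 94.3 CPM and at 58.6, 99.99 and 84.5 CPM. The treated wells of the 2 rats overlapped, and the vehicle wells did not. At 0.08 µM doxorubicin gave Pfkp values of 35.5, 30.8 and 42.7 CPM in batch 1, close to the vehicle wells, and of 25.5, 7.15 and 34.3 CPM in batch 2, below them. Under acetaminophen at 10000 µM the difference was positive for Slc2a1, Aldoa, Eno1 and Ldha, so that these genes were higher, relative to vehicle, in the hepatocytes of the second rat. Hk2 and Pgk1 were not among the 20 pairs. For Hk2 the SE of the difference was 0.45 under ranitidine at 4000 µM and 0.47 under diclofenac at 400 µM. The absence of Hk2 thus does not show that its response was alike in both batches.

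**Figure D3:**
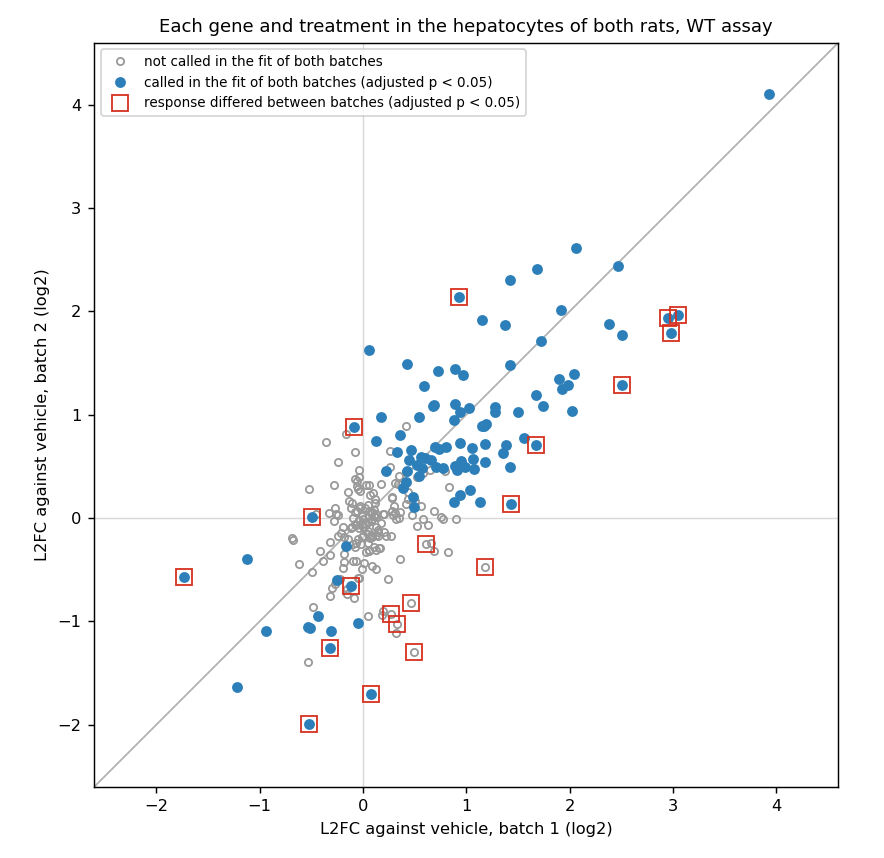
L2FC against the vehicle of the same batch in batch 1 (horizontal axis) and batch 2 (vertical axis) for the 280 pairs of gene and treatment, with filled points for the 103 pairs called in the fit of both batches and red squares for the 20 pairs whose response differed between batches. Most filled points lie in the upper right quadrant, and 16 of the squares lie below the diagonal, where L2FC was smaller in batch 2.

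In batch 1 all vehicle and culture medium wells stood on plate 4, whereas the wells of acetaminophen, chloramphenicol, indomethacin, ketoconazole, sulfasalazine and WY14643 stood on plate 5, which held neither control. For these 6 chemicals plate and treatment cannot be told apart in batch 1, nor plate and rat in a difference between batches. They account for 49 of the 103 called pairs and for 5 of the 20 pairs that differed between batches. Of the 49, 41 passed with the same sign in batch 2 alone against vehicle of their own plate. The vehicle wells of batch 2 stood on 2 plates, 3 on plate 2 and 3 on plate 3. For 2 of the 10 genes they did not overlap between plates. Pfkp was at 72.5 to 89.3 CPM on plate 2 and at 48.7 to 61.7 CPM on plate 3, and Vegfa at 320 to 323 CPM on plate 2 and 207 to 247 CPM on plate 3. The wells of culture medium did not overlap between plates for Vegfa alone, and there in the other direction, at 348 to 429 and 437 to 466 CPM. Against the vehicle wells of its own plate in batch 2, Vegfa under naproxen at 80 µM had an L2FC of 0.28 in place of 0.49 against all 6, and Pfkp under valproic acid at 400 µM had 0.21 in place of 0.46.

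Comparing the concentrations of each chemical directly, 58 of 140 pairs were higher at the high concentration, beside 20.1% of all gene and chemical pairs, and 13 were lower, beside 20.7%. The 13 became 5 with the wells of each rat summed and 7 without replicate 3 of every group. Indomethacin and ranitidine had 9 genes each that were higher at the high concentration, beside 20.5% and 28.9% of all genes, and diclofenac 8, beside 35.1%. The largest differences were those of Hk2, by an L2FC of 3.67 (SE 0.26) for ranitidine, 3.10 (SE 0.30) for diclofenac and 2.84 (SE 0.32) for caffeine. For valproic acid the direction of Vegfa turned with concentration. It rose at 400 µM, to 276, 245 and 329 CPM in batch 1 and 560.2, 589 and 568 CPM in batch 2 (L2FC of 0.98, SE 0.18, adjusted p = 2.22e-06), and fell at 10000 µM, a difference of -2.44 (SE 0.21, adjusted p = 5.49e-22). Ldha rose at 400 µM (L2FC of 0.97, SE 0.19, adjusted p = 7.23e-06) and was lower at 10000 µM than at 400 µM by an L2FC of -1.35 (SE 0.21, adjusted p = 7.03e-09), with no call against vehicle at 10000 µM. Between the concentrations of WY14643, simvastatin and doxorubicin, 0 of the 10 genes passed the threshold in edgeR or DESeq2, and 1, 3 and 2 of them had an unadjusted p under 0.05. For WY14643 the difference (200 against 8 µM) had a 95% interval of -0.63 to 0.13 for Vegfa, -0.54 to 0.26 for Ldha and -0.44 to -0.05 for Eno1 (adjusted p = 0.135). The intervals do not show that the concentrations act alike.

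Culture medium alone, without DMSO, raised 6 of the 10 genes against vehicle, where 7.51% of all genes were higher, and lowered 0, also in DESeq2 and at an unadjusted p under 0.05. They were Aldoa (L2FC of 0.38, SE 0.09), Pgk1 (0.44, SE 0.13), Eno1 (0.63, SE 0.08), Vegfa (0.57, SE 0.16), Adm (0.81, SE 0.18) and Bnip3 (0.76, SE 0.17). For Bnip3 the wells of culture medium were at 482, 449 and 408 CPM in batch 1 and between 982 and 1329 CPM in batch 2, above every vehicle well. Eno1, Adm and Pgk1 were likewise apart from vehicle in both batches, and Aldoa and Vegfa in batch 2 alone. The stellate cell sum of culture medium wells was at 161 to 201 CPM in batch 2, below every vehicle well, and the hepatocyte sum at 43921 to 44848 CPM in batch 1, above every vehicle well, and their part in these differences was not tested. A fit of the medium and vehicle wells alone called all 10 genes different. In batch 1 alone only Eno1 and Adm passed, and with the wells of each rat summed 0 of the 10 passed in edgeR (4 at an unadjusted p under 0.05), with Eno1 nearest at an adjusted p of 0.0741. Since every treatment was set against vehicle, each response is relative to cells in 0.5% DMSO.

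The ST assay, run on the same lysates, gave responses in the same direction for the 6 genes it measures. Of the 65 called pairs of the WT assay that the ST assay measures, all 65 had the same sign and 56 also passed in the ST assay. In all, 62 of 168 pairs passed in the ST assay. The probes of Slc2a1, Pfkp, Vegfa and Bnip3 carry the same number in both assays, whereas that of Adm differs. Adm under ranitidine at 4000 µM had an L2FC of 2.53 in the WT and of 2.36 in the ST assay. Both assays share the wells, so the ST values are not independent samples.

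**Figure D4:**
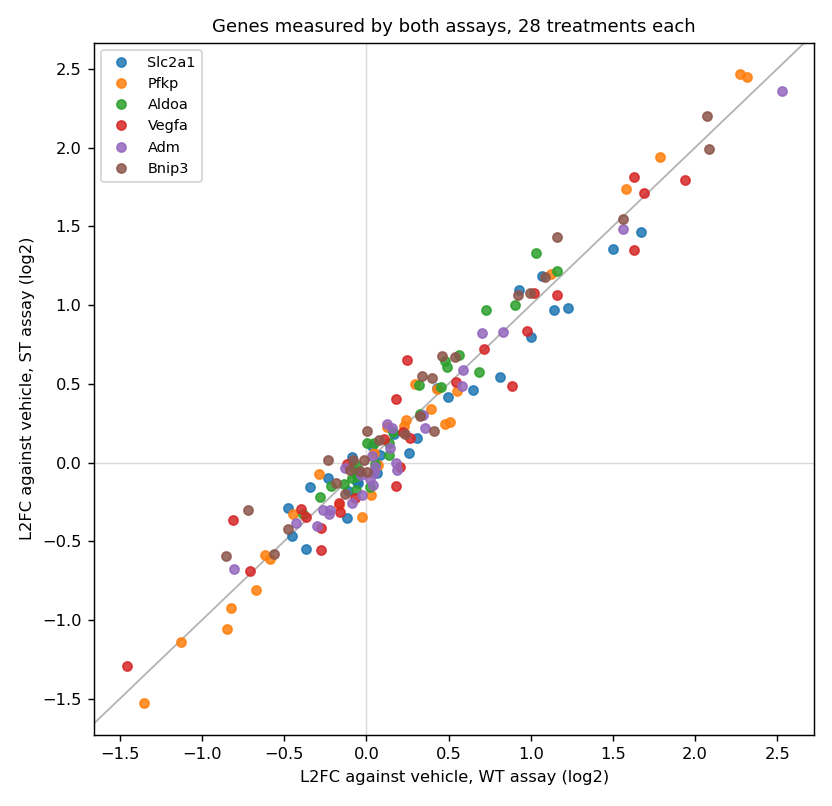
L2FC against vehicle in the WT assay (horizontal axis) and the ST assay (vertical axis) for Slc2a1, Pfkp, Aldoa, Vegfa, Adm and Bnip3, with 28 treatments for each gene and a grey line where both are equal. Points lie along the line from Pfkp under doxorubicin 2 µM, at -1.35 and -1.53, to Adm under ranitidine 4000 µM, at 2.53 and 2.36.

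The 10 genes did not form 1 pattern. Over the 56 combinations of treatment and batch, the Pearson correlation of log2 responses between 2 of the genes ran from -0.14 (Hk2 and Vegfa) to 0.82 (Hk2 and Aldoa), with a median of 0.44 over the 45 pairs. These points share libraries and the vehicle wells of their batch, so the values are descriptions. Among all genes tested, the closest patterns were those of Atp6v1c1 for Slc2a1 (r = 0.88), Tmem251 for Hk2 (0.87), Eno2 for Pfkp (0.83), Nampt for Aldoa (0.84), Agpat3 for Ldha (0.85), Kansl3 for Vegfa (0.88), Gpnmb for Adm (0.83) and Usf2 for Bnip3 (0.85). The second closest gene for Ldha was Egln1 (0.84), which encodes the oxygen-sensing hydroxylase PHD2. Those of the other genes were Atp6ap1 (Slc2a1), Asna1 (Hk2), Sirt2 (Pfkp), Pnpla7 (Aldoa), Mreg (Pgk1), Lamtor1 (Eno1), Rora (Vegfa), Dnase2b (Adm) and Rnf126 (Bnip3). For Pgk1 and Eno1 the closest were the unnamed loci AABR07008097.1 (0.96) and LOC103694877 (0.85). Whether the probes of those loci read the same RNA as those of Pgk1 and Eno1 was not tested.

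The other genes of glycolysis moved in both directions. Of 26 further glycolytic enzymes and transporters, 23 were measured and 19 passed the filter on low counts, and of their 266 pairs with a high concentration 83 were higher and 94 lower, beside the 25.4% and 25.5% of all pairs. At the low concentrations 26 of 266 were higher and 10 lower, beside 4.9% and 4.5%. Slc2a2, which encodes GLUT2, the main glucose transporter of hepatocytes, was lower in 15 treatments and higher in 1, and Pklr, the pyruvate kinase of liver, was lower in 15. Under acetaminophen at 10000 µM the L2FC of Slc2a2 was -4.15 (SE 0.19). Eno2, the neuronal enolase, was raised by 12 treatments and lowered by 2, most of all raised by ranitidine (L2FC of 3.16, SE 0.24).

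Genes of oxygen sensing were fewer and mixed. Of 11 genes for HIF subunits and oxygen sensors, 9 passed the filter, with 26 of 126 pairs higher and 37 lower at the high concentrations, near the 25.4% and 25.5% of all pairs. Epas1 (HIF-2 alpha) was higher in 9 treatments, by up to an L2FC of 1.02 under WY14643 at 8 µM, and lower in 6, down to -2.45 under diclofenac at 400 µM. Egln1, itself induced by HIF, was higher in 9 and lower in 4, with 1.64 (SE 0.17) under WY14643 at 8 µM. Hif1a, the oxygen-regulated HIF subunit, was higher in 8, with 0.93 under ketoconazole at 15 µM. Vhl, whose product targets HIF alpha subunits for breakdown, was lower in 9, at a vehicle level of only 2.15 CPM in batch 1 and 2.78 CPM in batch 2. Cited2, a brake on HIF, was lower in 11 and higher in 1.

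Of 30 other hypoxia-inducible genes, 29 were measured and 25 passed the filter, and 164 of their 350 pairs at the high concentrations were higher and 54 lower, beside 25.4% and 25.5% of all pairs. At the low concentrations 50 of 350 pairs were higher and 2 lower, beside 4.9% and 4.5%. Their median L2FC was 0.93 under WY14643 at 200 µM and 0.92 at 8 µM, 0.81 under indomethacin at 300 µM and 0.72 under ranitidine at 4000 µM, where the median of all genes tested lay between -0.03 and 0.05 in every treatment. It was -0.42 under doxorubicin at 2 µM, where 11 of the 25 were lower beside 10.3% of all genes. Ero1a, an oxidase of protein folding, was higher in 16 treatments (1.95 under WY14643 at 8 µM) and lower in 1, Tfrc, the transferrin receptor, in 15 (3.42 under acetaminophen at 10000 µM), P4ha2, a collagen hydroxylase, in 13 and Fam162a in 12 (2.02 under WY14643 at 8 µM), with P4ha2 and Fam162a lower in 2 each. Ddit4, an inhibitor of mTOR signalling, was higher in 7 and lower in 8, with -2.09 under chloramphenicol at 450 µM. In culture medium alone 14 of the 25 were higher, beside 7.51% of all genes. These lists were drawn up with earlier results of these data known.

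**Figure D5:**
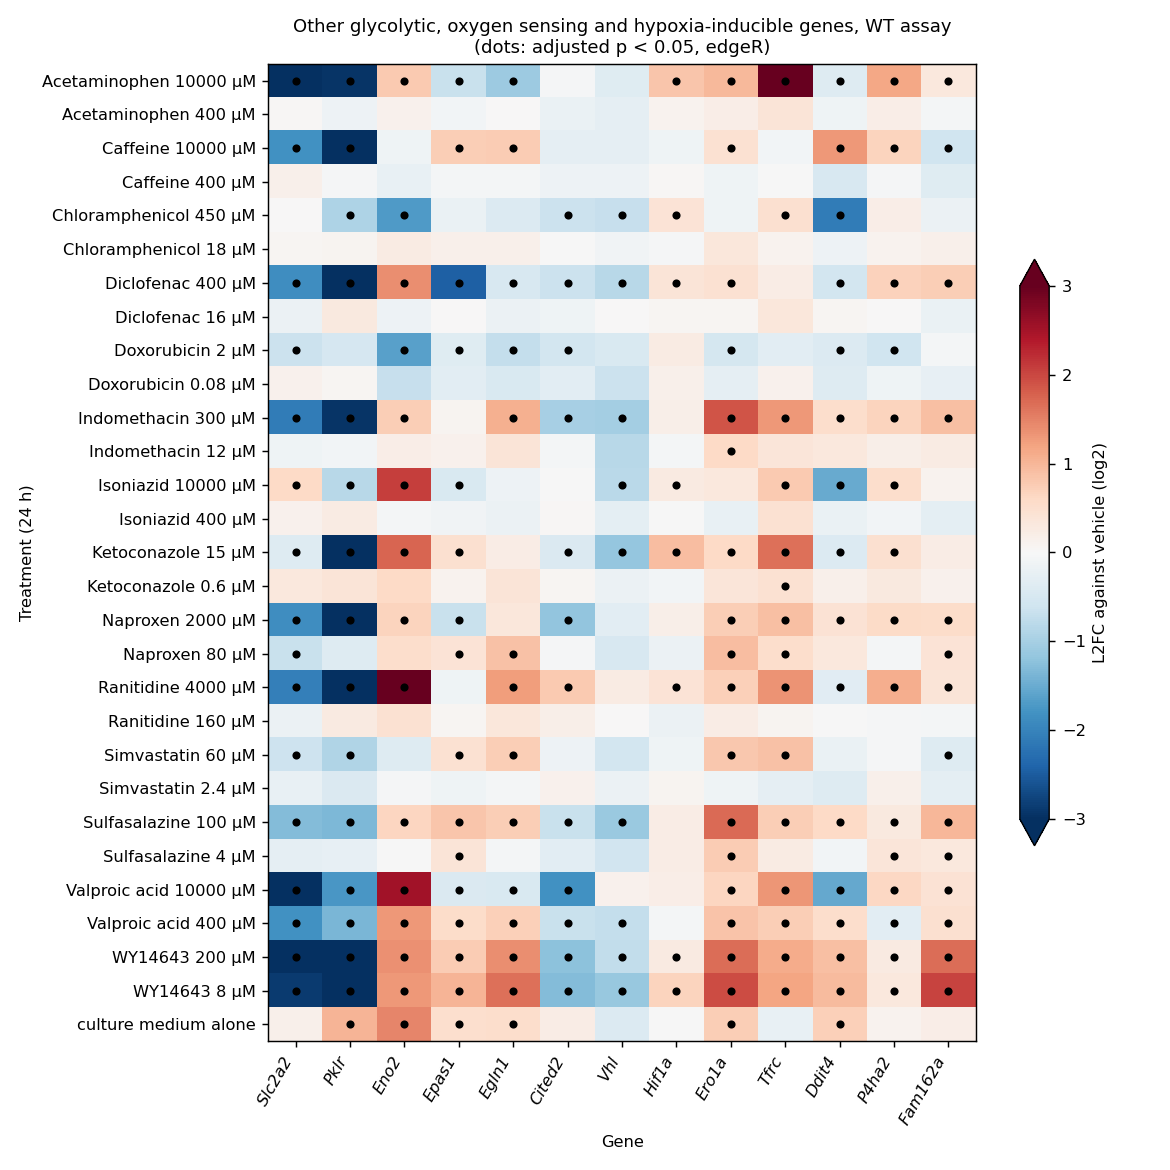
L2FC against vehicle in the WT assay for 13 further genes (columns, from left to right 3 of glycolysis, 5 of oxygen sensing and 5 other hypoxia-inducible genes) under each treatment (rows), with a dot where the adjusted p of edgeR was under 0.05. The colour scale ends at -3 and 3, and Slc2a2 and Pklr are mostly blue while Ero1a, Tfrc and Fam162a are mostly red.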

How the data were processed

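Lysates of primary rat hepatocytes were read by TempO-Seq in 372 libraries, each well by the WT and the ST assay. The authors deposited raw counts per probe, with no normalization. Per the methods of the study, STAR 2.5.3a placed the reads on rn6, with a limit on mismatches, and the Tempo-SeqR package counted them. The deposited counts of probes of 1 gene were added (WT, 22253 probes for 20946 symbols). The WT table lists Aldoa with 3 probes, Eno1 and Pgk1 with 2 and the others with 1. A gene was tested if its counts averaged 10 or more over all WT wells (10191 genes). The test was that of edgeR 4.0.16 in R 4.3.3 (quasi-likelihood, two-sided, TMM, batch and treatment as terms, Benjamini-Hochberg adjustment over all genes of a comparison), with calls at an adjusted p under 0.05. A fit with a group for each treatment and batch gave the values within batches and the difference between them. Intervals are 95% normal intervals from L2FC and SE. The ST assay (1760 genes tested) was fitted likewise.

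Wells were the units of the fit, so p-values measure mainly the spread between wells of 1 rat, and fits with the wells of each rat summed were added. Pairs given in full were, for each gene, the up to 2 largest positive and 2 largest negative L2FC among treatments that passed with the same sign in both batches. Other pairs given with values were chosen after those were seen. From each pathway list, the 5 genes with most called treatments were named (some of them are not reported here), and the closest patterns were taken by Pearson r of the difference in mean log2 CPM (prior count 2) from vehicle over 56 combinations of treatment and batch. The genes, lists and tests were chosen with earlier results of these data known. Alternatives were RLE and total-count scaling, DESeq2 1.42.0, no filter, the strongest probe alone, single batches, vehicle of the same plate, left-out wells, pairwise fits and an absolute L2FC of at least 1. The fit was tested on simulated counts. Annotated promoters came from RefSeq (GRCr8), which is not the build of the probes, and only sequence and its own coordinates were used. Intervals and SEs do not cover differences between animals beyond the 2 used.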

Additional observations from a re-analysis of the deposited data

Results flagged for a closer look

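The lowest of the 6 vehicle wells of batch 2 for Ldha, at 64.5 CPM, stood apart from the other 5 by 0.627 of the range of the group on the log2 scale, just above Dixon's limit for 6 wells. On the linear scale the gap was 0.564 of the range, under that limit. On the log2 scale it was the only such well among 20 groups of 6 wells tested (vehicle and culture medium, 10 genes), where chance gives about 1 in 20.

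Among the pairs given in full, the response differed between the 2 batches for 8, each by a test of L2FC in batch 2 minus that in batch 1 (edgeR quasi-likelihood, adjusted over all genes). The replicates of this test are wells of 1 rat, so it does not test a difference between animals. Ranitidine at 4000 µM gave -1.01 for Pfkp (adjusted p = 0.0174) and -1.08 for Adm (adjusted p = 0.00239). Valproic acid at 10000 µM gave -1.19 for Pfkp (adjusted p = 0.00581) and -0.94 for Adm (adjusted p = 0.0154). Doxorubicin at 2 µM gave -1.47 for Pfkp (adjusted p = 0.00684) and -0.54 for Aldoa (adjusted p = 0.0252). Acetaminophen at 10000 µM gave positive differences, 1.21 for Slc2a1 (adjusted p = 0.0472) and 1.16 for Ldha (adjusted p = 0.0433). The vehicle level of the gene was higher in batch 2 in the 6 pairs with a negative difference, and also for Ldha, whose difference was positive. That level is subtracted in each L2FC, so it is not independent of the difference. A batch is 1 rat, 1 culture, its own plates and its own library preparation and sequencing, which cannot be told apart. The acetaminophen wells of batch 1 stood on a plate without vehicle wells.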

How the results depend on the processing

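Calls of the pairs given in full depended little on the tool and more on what counts as a replicate. All 31 pairs given in full passed the threshold in the same direction with RLE scaling, DESeq2, no filter on low counts, the strongest probe alone, pairwise fits and each vehicle well left out. Of all 103 called pairs, 100 had the same sign in both batches and 72 passed with wells summed per rat. None of the 31 changed direction in any alternative run. They were picked as the largest called responses with the same sign in both batches, which largely fixed their direction in single batches in advance. Scaling by total counts lost 1 of them (Eno1 under valproic acid at 10000 µM), summing wells per rat 4, batch 1 alone 6, batch 2 alone 1, vehicle of the same plate 1, the ST assay 2 of 20 and leaving out replicate 2 of every group 1 (Eno1 under caffeine at 10000 µM). CPM means moved by more than 1 SD in 30 of 62 cases under TMM-scaled library sizes. The median of all genes under total counts ran from -0.43 to 0.27 between treatments, and under it 0 of the 103 called pairs changed sign.

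With an absolute L2FC of at least 1 also required, 36 pairs were higher and 3 lower at the high concentrations, 3 higher and 0 lower at the low ones, 27 higher and 3 lower at the high against the low concentration, and 0 different in culture medium. With wells summed per rat, 7 pairs were lower at the high concentrations, 8 higher and 0 lower at the low ones, 5 lower at the high against the low concentration and 0 different in culture medium. In batch 1 alone, 7 were lower at the high and 0 at the low concentrations, and 2 differed in culture medium. At the low concentrations, 6 pairs were lower in batch 2 alone and 8 against vehicle of the same plate. Pairwise fits called 10 genes different in culture medium. The cause of these shifts was not tested. The summed and single-batch fits also have fewer replicates.

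With replicates left out in turn, the pairs higher at the high concentrations numbered 64 to 72, lower at the high 12 to 18, higher at the low 10 to 16 and lower at the low 0 to 2. The pairs higher at the high against the low concentration numbered 48 to 58 and lower 7 to 13, and culture medium differed for 5 to 7 genes. Without replicate 2 of every group, 10 pairs were higher at the low concentrations, and without replicate 3, 7 were lower at the high against the low concentration. The 1 pair lower at the low concentrations (Pfkp, doxorubicin at 0.08 µM) became 0 without replicate 2 or without vehicle well 3 of batch 2, and 2 without replicate 1. Leaving out the culture medium well with the lowest total, chosen after seeing the data, gave 6 calls in culture medium. No paired analysis was possible because the labels give plate positions but no replicate numbers that tie wells across groups, and batch is already a term of the fit. With 2 rats, a difference between animals cannot be told from a difference between cultures, library preparations or sequencing runs.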
